A study of Mus musculus with 6 samples.

Results

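The nuclear genes for the mitochondrial respiratory chain and ATP synthase were examined in the striatum of mice whose huntingtin gene carries a lengthened CAG repeat. Members were the probe sets that the platform annotation assigns to exactly 1 gene symbol beginning with Nduf, Uqcr or Atp5, the symbols Sdha, Sdhb, Sdhc, Sdhd and Cyc1, and the numbered Cox families 4 to 8 and 10 to 19. This gave 105 of 12422 probe sets and 76 of 8251 genes. Of these, 29 genes belong to complex I, 4 to complex II, 8 to complex III, 15 to complex IV and 14 to complex V, and 6 symbols name assembly factors (Ndufaf1, Ndufaf4, Cox14, Cox16, Cox17 and Cox18). RNA came from 3 Hdh4/Q80 mice (replicates 7, 8 and 9) and 3 wild-type littermates (replicates 4, 5 and 6), all C57BL/6 females aged 12 months by the labels, with 1 Affymetrix array per mouse. Hdh4/Q80 names the expanded allele of the endogenous gene, and the labels do not state the zygosity. Values are log2 expression per probe set, so a difference of 1 is a doubling, and all differences are Hdh4/Q80 minus wild-type. The comparison asks whether the mutant striatum holds more or less of each transcript than the striatum of littermates.

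The respiratory chain passes electrons from NADH (complex I) and succinate (complex II) through ubiquinone, complex III and cytochrome c to oxygen at complex IV, and complex V uses the resulting proton gradient to make ATP. Complexes I, III, IV and V combine subunits encoded by mitochondrial DNA with nuclear ones, whereas all subunits of complex II are nuclear. The striatum is known for its sensitivity to block of complex II, since the succinate dehydrogenase inhibitor 3-nitropropionic acid causes striatal lesions in rodents. No probe set was assigned alone to a gene symbol beginning with mt-, the only search made for transcripts encoded by mitochondrial DNA. The members' values below concern nuclear transcripts alone.

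Many nuclear genes of the chain carry sites for NRF1, for ETS-family factors such as GABPA, or for YY1 near their starts. RefSeq promoters (GRCm38.p6, 250 bases before to 50 after the first listed start) were at hand for 60 of the 76 genes. The 150 bases before the start are shown for 4 genes, the subunit genes whose groups did not overlap (described below) and whose 150 bases held one of those motifs. Capitals mark a match, on either strand, to GCGCANGCG (NRF1) or CCGGAAG (ETS). The NRF1 letters are nearly their own reverse complement, so matches on opposite strands can overlap.
Atp5e, chr2:174464102-174464251, minus strand: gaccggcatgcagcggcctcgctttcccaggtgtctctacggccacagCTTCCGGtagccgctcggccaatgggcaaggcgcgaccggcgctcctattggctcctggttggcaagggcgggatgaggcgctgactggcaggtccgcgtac
Uqcr11, chr10:80406822-80406971, minus strand: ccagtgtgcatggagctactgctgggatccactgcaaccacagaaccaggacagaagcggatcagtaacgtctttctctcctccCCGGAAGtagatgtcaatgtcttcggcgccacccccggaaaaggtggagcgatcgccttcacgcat
Cox6a1, chr5:115348959-115349108, minus strand: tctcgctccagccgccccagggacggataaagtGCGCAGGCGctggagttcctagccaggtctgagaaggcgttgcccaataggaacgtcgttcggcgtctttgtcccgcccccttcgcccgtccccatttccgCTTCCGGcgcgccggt
Atp5k, chr5:108434400-108434549, minus strand: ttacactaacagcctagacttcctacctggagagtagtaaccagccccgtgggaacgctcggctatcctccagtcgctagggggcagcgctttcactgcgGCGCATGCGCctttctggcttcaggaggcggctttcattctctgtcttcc
Within the 150 bases shown, Atp5e and Uqcr11 have an ETS match alone, Atp5k has overlapping NRF1 matches, and Cox6a1 has one of each. Uqcr11 and Atp5k hold letters of both kinds when all 300 bases are read. Over the whole 300 bases, NRF1 letters stood in 14 of the 60 member promoters (23.3%), against 6.47% of all 27025 promoters of that length and 12.1% of those of the 6572 genes on the array. ETS letters stood in 17 (28.3%, against 9.12% and 15.7%), and the YY1 letters AANATGGCG in 5 (8.33%, against 2.51% and 4.61%). The GC box GGGCGG was in 29 (48.3%), a share between the 35.9% of all promoters and the 59.3% of array genes. CCAAT was in 26 (43.3%, against 37.9% and 38.3%). A match is a run of letters and not a measured binding site. Starts were taken as listed. The window of Cox16, one of the 17 with ETS letters, holds coding-like sequence and may not be its promoter, and the other windows were not checked for this.

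None of the 105 member probe sets passed limma's test at an adjusted p under 0.05, the same 0% that held for all 12422 probe sets, and the smallest adjusted p among them was 0.857. At an unadjusted p under 0.05, 5 of the 105 probe sets were counted (4 lower, 1 higher), or 4.76%, against 5.1% of all probe sets. The single differences were small: the 95% interval lay within a 1.5-fold change in either direction for 75 of the 76 genes, Atp5e being the exception, and within 1.25-fold for 48. The signs were uneven. In 57 of 76 genes (75%) the mutant mean was the lower one, against 4396 of 8251 genes (53.3%) on the array, and the median difference was -0.064, against -0.0072. A bulk measurement cannot tell fewer cells of a type from less RNA per cell.

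**Figure D1:**
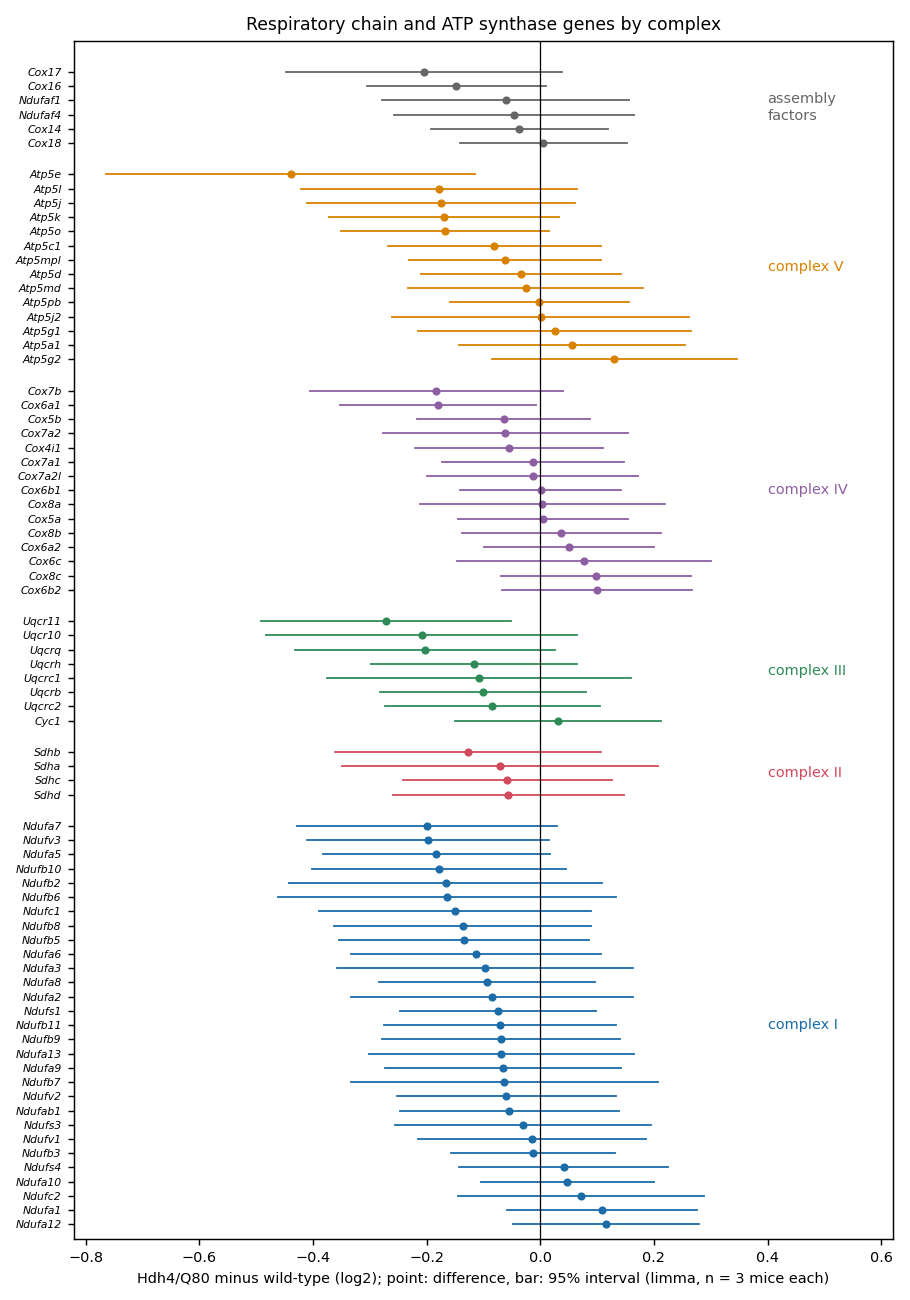
The x axis gives the Hdh4/Q80 minus wild-type difference in log2 expression for each of the 76 genes (rows, coloured by complex), with the 95% interval from limma as a bar (n = 3 mice per group). Most points of complexes I, II and III lie left of 0, those of complex IV lie on both sides, and the bars of Atp5e, Uqcr11 and Cox6a1 alone do not reach 0.

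Counted by mouse, the 3 mutants all read below the 3 wild-type mice in 9 of 76 genes (11.8%), against a background of 5.22% of array genes. Those 9 were Ndufb10 and Ndufv3 of complex I, Uqcr11 and Uqcrq of complex III, Cox6a1 of complex IV, Atp5e, Atp5k and Atp5o of complex V, and the assembly factor Cox16. In no gene did all 3 mutants read above all 3 wild-type mice, against 5.87% of array genes. Replicate 8 was the lowest mutant in each of the 9. With it left out, the counts were 11 lower, against 7.93% of array genes, and 2 higher (Cox6a2 and Cox6b2, named here after their values were seen), against 9.89%.

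**Figure D2:**
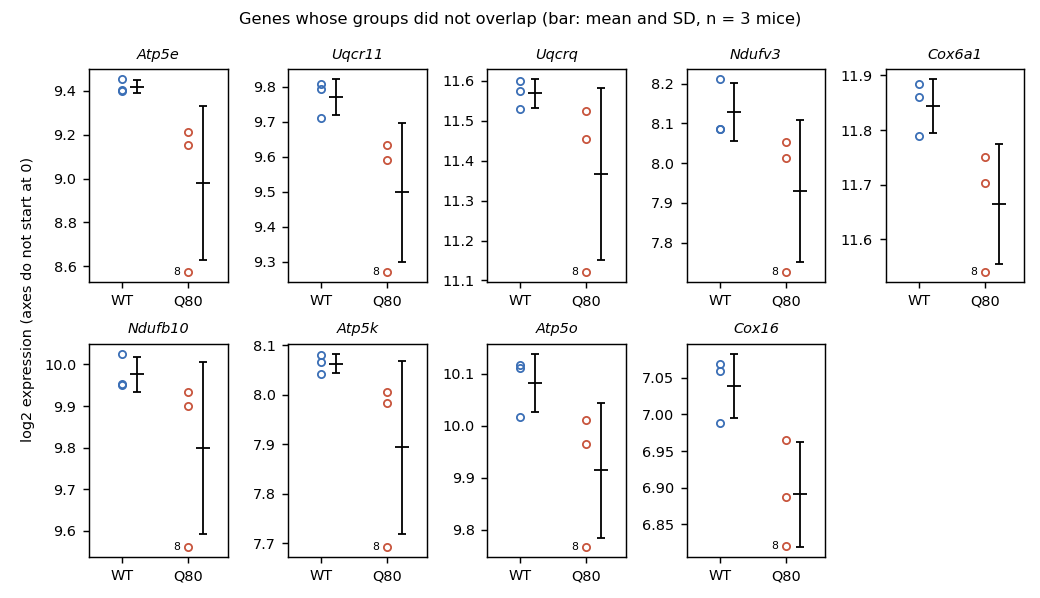
Log2 expression (y axis, not starting at 0) of the 9 genes in each mouse (open circles, wild-type WT in blue and Hdh4/Q80 Q80 in red), with mean and SD (n = 3 mice). The number 8 marks Hdh4/Q80 replicate 8, the lowest mouse in every panel.

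Complex I, the NADH dehydrogenase, had 24 of 29 genes below 0 and a median difference of -0.071 (range -0.20 to 0.12). Its core subunits carry the flavin and iron-sulfur clusters. Ndufv1, which binds NADH and the flavin, read 11.38, 11.32 and 11.29 in the wild-type mice and 11.35, 11.13 and 11.46 in mutants 7, 8 and 9. The mutants thus stood on both sides of the controls, with a difference of -0.014 ± 0.0898 (SE, n = 3 per group, limma adjusted p = 0.981). Ndufs1, an iron-sulfur subunit of the same module, differed by -0.075 ± 0.0771 (limma adjusted p = 0.875). Among the accessory subunits, which surround this core, Ndufv3 read 8.08, 8.09 and 8.21 in wild-type and 8.01, 7.73 and 8.05 in mutant striatum. All mutants were below all controls, by 0.032 between the nearest mice, and the difference was -0.20 ± 0.095 (95% interval -0.41 to 0.015, limma adjusted p = 0.857). Ndufa5 read 10.89, 10.65 and 10.77 against 10.63, 10.45 and 10.67, a difference of -0.18 ± 0.0892. Its groups overlapped, since mutant 9 lay above wild-type 5. Ndufb10 read 9.95, 9.95 and 10.03 against 9.93, 9.56 and 9.90. Most of its difference of -0.18 came with mutant 8, the other two mutants lying just under the controls. Ndufa7 differed by -0.20 ± 0.103, the largest negative difference of the complex. The 5 positive differences of the complex all belonged to probe sets with a mean under 9. Ndufa12 read 6.23, 6.38 and 6.34 in wild-type mice and 6.43, 6.50 and 6.37 in mutants, a difference of 0.12 ± 0.0733 with overlapping groups. Ndufa1 read 7.01, 7.11 and 6.93 against 7.08, 7.20 and 7.11 (difference 0.11), and its other, dim probe set gave -0.081.

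In complex II, succinate dehydrogenase, all 4 genes had a lower mean in the mutants, with a median of -0.064, and all 4 overlapped between the groups. Sdha, the flavin-bearing subunit that oxidises succinate, read 7.59, 7.49 and 7.51 in wild-type mice and 7.45, 7.17 and 7.75 in mutants. Mutant 8 was the lowest mouse and mutant 9 the highest, and the difference was -0.071 ± 0.125 (95% interval -0.35 to 0.21, limma adjusted p = 0.934). Sdhb, the iron-sulfur subunit, read 9.75, 9.61 and 9.64 against 9.62, 9.30 and 9.71, a difference of -0.13 ± 0.105 (interval -0.36 to 0.11, limma adjusted p = 0.862). Of the membrane anchors, Sdhc read 9.65, 9.58 and 9.64 against 9.57, 9.43 and 9.71 (difference -0.058), and Sdhd read 9.65, 9.59 and 9.57 against 9.51, 9.39 and 9.74 (difference -0.056). The order of the mutants was the same in all 4 genes, replicate 8 below replicate 7 below replicate 9. Without replicate 8 the median of the complex was 0.016.

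Complex III, the ubiquinol-cytochrome c reductase, had 7 of 8 genes below 0 and the lowest median of the complexes, -0.11 (range -0.27 to 0.031). Uqcr11, a small accessory subunit, read 9.71, 9.79 and 9.81 in wild-type and 9.63, 9.27 and 9.59 in mutant striatum. The mutants were lower without overlap, a 1.21-fold lower mean with a difference of -0.27 ± 0.0986 (interval -0.49 to -0.051, limma adjusted p = 0.857), and -0.16 when replicate 8 was left out. Uqcrq, another small subunit, read 11.58, 11.53 and 11.60 against 11.45, 11.12 and 11.52. Mutant 9 came within 0.0057 of wild-type 5, and the difference was -0.20 ± 0.102. Uqcr10 read 10.26, 10.25 and 10.28 against 10.11, 9.74 and 10.31 (difference -0.21), with mutant 9 as the highest of all 6 mice. The large proteins Uqcrc1 and Uqcrc2 had smaller differences, of -0.11 ± 0.12 and -0.085 ± 0.0847, and Uqcrh and Uqcrb differed by -0.12 and -0.10. Cyc1, the haem-bearing cytochrome c1, was the exception in sign. It read 11.37, 11.42 and 11.40 against 11.48, 11.53 and 11.27, a difference of 0.031 ± 0.0813 (limma adjusted p = 0.953), with mutant 8 the highest mouse, while its other probe set gave -0.047.

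Complex IV, cytochrome c oxidase, stood near 0, with 7 of 15 genes below it and a median of 0.00058 (range -0.18 to 0.10). Cox6a1, the isoform of subunit 6a found outside muscle, read 11.86, 11.79 and 11.88 in wild-type mice and 11.70, 11.54 and 11.75 in mutants. Its groups did not overlap, with a 1.13-fold lower mutant mean and a difference of -0.18 ± 0.0773 (interval -0.35 to -0.007, limma adjusted p = 0.857). Cox7b read 9.70, 9.41 and 9.51 against 9.49, 9.19 and 9.38, a difference of -0.18 ± 0.0997 in overlapping groups. Cox4i1 and Cox5b, subunits of the ubiquitous enzyme, differed by -0.055 ± 0.074 and -0.065 ± 0.0679, Cox7a2 by -0.062 ± 0.0967 and the supercomplex factor Cox7a2l by -0.013 ± 0.0832. Cox5a (difference 0.0046) and Cox8a (0.0036) were measured by dim probe sets, below the lower quartile of every array. Cox6c differed by 0.077 ± 0.10, with mutant 8 highest at 11.32, and Cox6b1 by 0.00060. Of the muscle and testis isoforms, Cox6a2, the striated-muscle form of subunit 6a, read 8.35, 8.30 and 8.31 against 8.42, 8.32 and 8.37 (difference 0.050 ± 0.0668). The remaining ones differed by 0.037 (Cox8b), 0.10 (Cox6b2), 0.098 (Cox8c) and -0.013 (Cox7a1, dim). The 7 measured striated-muscle markers averaged 6.60 to 6.63 over the wild-type and 6.53 to 6.68 over the mutant arrays, and whether the isoform probe sets read their own transcript was not tested. Without those 5 isoforms, 6 of 10 complex IV genes were below 0, with a median of -0.034.

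Complex V, the ATP synthase, held the largest difference of all members. Atp5e, the epsilon subunit of the F1 stalk, read 9.40, 9.41 and 9.45 in the wild-type mice and 9.15, 8.57 and 9.21 in the mutants. The groups were apart by 0.18 between the nearest mice. The mutant mean was 1.36-fold lower, a difference of -0.44 ± 0.145 (interval -0.76 to -0.12, limma adjusted p = 0.857), and -0.24 without replicate 8. A single probe set of the kind with fewer specific probes measured it. Atp5o, the peripheral-stalk subunit known as OSCP, read 10.11, 10.12 and 10.02 against 9.97, 9.77 and 10.01. Its groups were separated by only 0.0072, and the difference was -0.17 ± 0.0819 (interval -0.35 to 0.015). Atp5k, a membrane subunit linked to synthase dimers, read 8.04, 8.08 and 8.07 against 7.98, 7.69 and 8.01, a difference of -0.17 ± 0.0906, with mutants 7 and 9 just below the controls. Atp5j and Atp5l, stalk and membrane subunits, each differed by -0.18 in overlapping groups. Atp5a1, the alpha subunit of the catalytic head, read 11.28, 11.00 and 11.04 against 11.09, 11.24 and 11.16 (difference 0.056 ± 0.0889), so that the highest and the lowest mouse were both wild-type, and Atp5c1, the gamma subunit of the central stalk, differed by -0.081 ± 0.0838. Among the genes for the membrane ring, Atp5g2 read 8.13, 7.95 and 7.94 against 8.07, 8.02 and 8.33 (difference 0.13 ± 0.0963), and Atp5g1 differed by 0.026 ± 0.107. In all, 10 of 14 genes were below 0, with a median of -0.048.

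Of the assembly factors, Cox16 read 6.99, 7.06 and 7.07 in wild-type and 6.96, 6.82 and 6.89 in mutant striatum, all mutants lower, with a difference of -0.15 ± 0.0704. Its difference without replicate 8 was -0.11. Cox17, the copper chaperone of cytochrome c oxidase, read 9.30, 9.21 and 9.25 against 9.14, 8.78 and 9.22, a difference of -0.21 ± 0.109 in groups that overlapped slightly. Cox18, which inserts a mitochondrially encoded subunit into the inner membrane, differed by 0.0054. The group had 5 of 6 genes below 0 and a median of -0.054.

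The difference of the members was uneven among the mutants. As a deviation from each gene's mean over the 6 mice, the members' median was 0.077, -0.0014 and 0.029 in wild-type mice 4, 5 and 6, and -0.0020, -0.187 and 0.034 in mutants 7, 8 and 9. Mutant 9 lay within the wild-type range, mutant 7 lay just below its lower end, and mutant 8 lay below all others, with wild-type 4 highest. Mutant 8 was the lowest of the 6 mice in 55 of 76 genes (72.4%), against 36.0% of the array's genes. It was lowest in 24 of 29 genes of complex I, 4 of 4 of complex II, 7 of 8 of complex III, 6 of 15 of complex IV and 9 of 14 of complex V. Its median deviations were -0.23, -0.244, -0.239, -0.047 and -0.148 in that order. In mutant 9, complexes I and II stood at 0.067 and 0.135. Leaving out mutant 8 brought the members' median from -0.064 to -0.013 and the count below 0 from 57 to 44 of 76, where 48.6% of array genes were below 0. Without mutant 8 the medians were -0.0003 for complex I, -0.052 for complex III, -0.0076 for complex IV and -0.045 for complex V. Leaving out wild-type 4 instead gave a median over all members of -0.040, and leaving out mutant 9 gave -0.127.

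**Figure D3:**
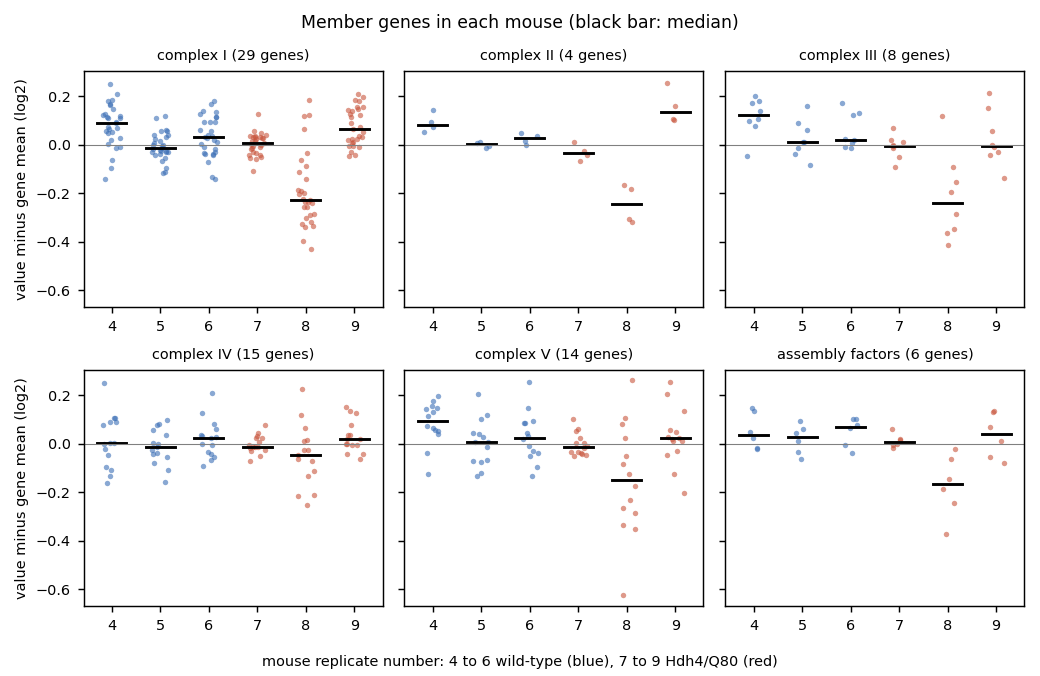
Each point is 1 gene in 1 mouse, plotted as its log2 value minus the gene's mean over the 6 mice (y axis), with the mice on the x axis (replicates 4 to 6 wild-type in blue, 7 to 9 Hdh4/Q80 in red) and a black bar at the median. Replicate 8 lies below the other mice in complexes I, II, III and V, with medians from -0.148 to -0.244, and near them in complex IV, at -0.047.

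The array of mutant 8 also differed from the rest as a whole. The SD of its deviations from gene means was 0.179, against 0.072 to 0.119 on the other arrays, its mean correlation with them was 0.992 (up to 0.997 for the others), and the SD of its values was 1.741, against 1.773 to 1.806. The 3' minus 5' signal of the Gapdh control was 0.210 on it and 0.116 to 0.330 on the others, and that of Actb was 0.858, against 0.566 to 0.855. Its 3' minus middle signal was the highest for both controls. That value was 0.057 for Gapdh, against -0.044 to 0.048 on the others, and 0.992 for Actb, against 0.754 to 0.930. Of the 5 measured markers of striatal projection neurons, 4 were not dim (Rgs9 was), and 1 of 5 was lower in the mutants (median 0.018). The 5 averaged 9.18 to 9.41 in wild-type and 9.28 to 9.37 in mutant mice. General neuron markers were lower in the mutants in 6 of 6 genes (median -0.183, means 9.34 to 9.59 against 9.11 to 9.45), cortical neuron markers in 4 of 5 (median -0.30, 7.22 to 7.71 against 6.94 to 7.38) and microglial markers in 7 of 7 (median -0.211, 8.64 to 8.72 against 8.34 to 8.57). Choroid plexus markers were higher in 4 of 4 (median 0.574, 7.08 to 7.85 against 7.11 to 8.49). Blood markers were lower in 2 of 2 (median -0.22, 9.76 to 9.94 against 9.59 to 9.71), with Hba-a1 at -0.43 without overlap. Oligodendrocyte markers were lower in 5 of 7 (median -0.035, 9.62 to 9.69 against 9.53 to 9.57), with Mobp at -0.31 and Mal at -0.23 without overlap. Astrocyte markers were lower in 4 of 6 (median -0.11, 8.93 to 9.01 against 8.80 to 9.01) and endothelial markers in 1 of 5 (median 0.0076, 7.32 to 7.42 against 7.34 to 7.42). All mutants were below all wild-type mice in 4 of 7 microglial markers (57.1%), against 5.22% of array genes. The same held for 2 of 7 oligodendrocyte, 1 of 2 blood and 1 of 6 astrocyte markers. Another astrocyte marker (1 of 6) had all mutants higher, against 5.87%. The neuron, choroid plexus and endothelial lists had no gene without overlap. Without mutant 8 the medians were 0.030 for striatal projection neuron, -0.075 for general neuron, -0.13 for cortical neuron and -0.123 for microglial markers. Those of choroid plexus, blood, oligodendrocyte, astrocyte and endothelial markers were then 0.476, -0.20, -0.104, -0.0029 and 0.042, in that order. The part of array quality and of these markers in the members' differences was not tested.

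The differences varied with the level of the probe set, which depends on its probes as well as on the transcript. At a mean log2 value of 9 or more, 41 of 45 members (91.1%) were below 0, with a median of -0.085. Of the 1237 array genes in that range, 69.0% were below 0, with a median of -0.044. From 7 to 9, 12 of 20 members were below 0 (median -0.034), against 57.1% of 3799 genes (median -0.014). Under 7, 4 of 11 were below 0 (median 0.0036), against 42.7% of 3215 genes. Across genes, which are not independent replicates and share the same 6 arrays, the correlation of difference with level was r = -0.377 for the 76 members and -0.224 for all genes. In the brightest range mutant 8 was the lowest mouse in 40 of 45 members (88.9%) and in 61.4% of all genes, and without it the medians there were -0.020 and -0.0011.

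**Figure D4:**
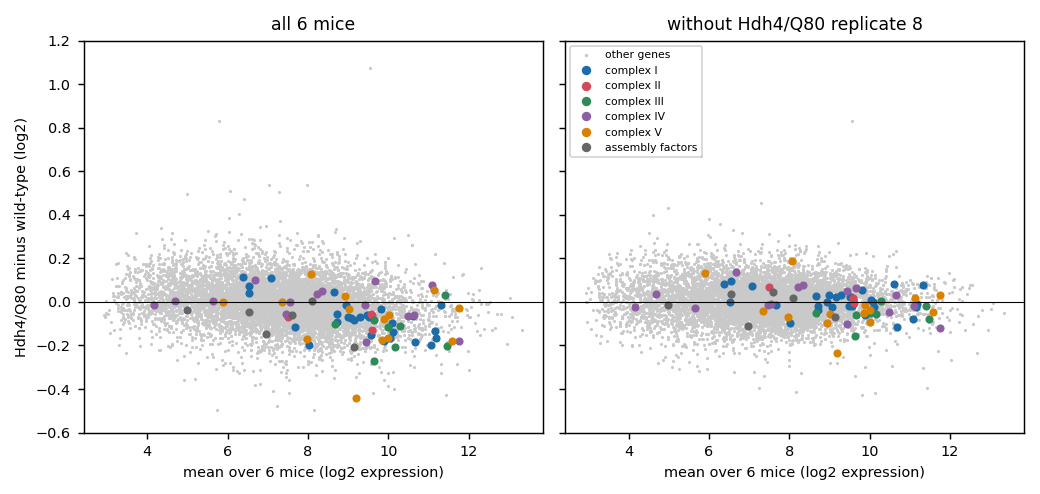
Hdh4/Q80 minus wild-type difference (y axis, log2) against the mean over the 6 mice (x axis, log2 expression) for the members, coloured by complex, and all other genes in grey, with all 6 mice on the left and without Hdh4/Q80 replicate 8 on the right. On the left the members above 9 lie mostly below 0 (41 of 45), and on the right they lie closer to it.

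Members were also split by role, a grouping chosen after the values were seen. The 49 accessory subunits had 39 genes below 0 and a median of -0.085, and held 7 of the 9 genes whose groups did not overlap. The 16 core subunits, taken as those with a counterpart in the bacterial enzymes, had 12 below 0 and a median of -0.045. Atp5o was the 1 core gene (6.25%) without overlap, a share near the 5.22% of array genes. The 5 muscle or testis isoforms had 1 below 0 and a median of 0.050, and mutant 8 was the lowest mouse in none of them, against 40 of 49 accessory and 10 of 16 core genes. Without mutant 8 the accessory and core medians were -0.016 and -0.0096, and without wild-type 4 they were -0.059 and -0.0068. Genes with the NRF1 letters in the promoter had a median difference of -0.14 (n = 14) and those without it -0.060 (n = 46), which became -0.033 and -0.0063 without mutant 8. The former had a median level of 9.60 and the latter 9.31. For the ETS letters the medians were -0.12 and -0.065, and without mutant 8 -0.0076 and -0.014, in the opposite order. The median level was 9.60 with the ETS letters and 9.02 without them. Array genes with the NRF1 letters also had a lower median (-0.025) than those without (-0.0050), with all 6 mice. The ETS medians over array genes were -0.029 with the letters and -0.0036 without, so neither order was particular to the members.

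Probe sets of the same gene did not always give the same sign. Of 22 genes with several probe sets, 10 had differences of both signs. Atp5d, the delta subunit of the F1 stalk, had 5 probe sets with differences from -0.13 to 0.12. Ndufb2 had 4, from -0.26 to 0.32. One of these, dim and of the kind with fewer specific probes, read 5.52, 5.63 and 5.57 in wild-type and 5.38, 5.24 and 5.33 in mutant mice, while the brightest gave -0.17 in overlapping groups. The dimmer probe set of Atp5g1 read 6.91, 6.92 and 6.90 against 7.003, 7.15 and 7.07, all mutants higher (difference 0.16 ± 0.069), which its brighter probe set did not show. A probe set of Cox6b2 gave 0.36 through mutant 8 alone, at 7.11 against 6.08 to 6.27 in the other mice.

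Genes that serve the chain outside the member rule were read in the same fit, and none passed the test (limma adjusted p of 0.857 or more). Of 70 measured genes for mitochondrial DNA upkeep and translation, mostly mitochondrial ribosomal proteins, 54 were below 0 with a median of -0.068, and 14 (20%) had all mutants below all wild-type mice. Over all array genes, 53.3% were below 0 and 5.22% had all mutants lower. Mrpl21, a protein of the large mitochondrial ribosomal subunit, differed by -0.21 ± 0.067 and Mrps18a, also ribosomal, by 0.26 ± 0.194. Without mutant 8 the median of that list was -0.026. The import machinery had 19 of 23 below 0 (median -0.046), with Timm13 at -0.15 ± 0.069 and Timm8a1 at 0.060 ± 0.082, both small chaperones of the intermembrane space. Electron carriers had 10 of 12 below 0 (median -0.047, and 0.019 without mutant 8), with the glycerol-3-phosphate dehydrogenase Gpd2 at -0.21 ± 0.116 and Dhodh of pyrimidine synthesis at 0.020 ± 0.108. Assembly and copper delivery had 5 of 8 below 0 (median -0.022). In that list Lrpprc, which stabilises mitochondrial messenger RNA, differed by -0.17 ± 0.080 without overlap, and Iscu, the iron-sulfur scaffold, by 0.092 ± 0.078. Carriers, porins and ATP users had 5 of 13 below 0 (median 0.019), with the ATP synthase inhibitor Atpif1 at -0.12 ± 0.081 and the porin Vdac2 at 0.11 ± 0.089. Among the regulators of mitochondrial biogenesis 10 of 15 were below 0 (median -0.022). Ppargc1a, the coactivator PGC-1alpha, read 6.29, 6.24 and 6.24 in wild-type and 6.26, 6.03 and 6.07 in mutant mice. Mutants 8 and 9 were below all controls and mutant 7 was among them, a difference of -0.14 ± 0.079. The deacetylases Sirt3 and Sirt1 differed in opposite directions, by -0.12 ± 0.070 and 0.14 ± 0.075, each without overlap between the groups. Gabpb1, a partner of GABPA, also had all mutants higher, with a difference of 0.13 ± 0.0695. That made 1 of 15 lower and 2 of 15 higher without overlap, against 5.22% and 5.87% of array genes.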

How the data were processed

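RNA of each of 6 striata was hybridised to an Affymetrix array. The authors deposited a log2 value for each probe set, computed with RMA in affy, per the submitters' processing notes. RMA equalises the arrays, so it removes a global change in RNA, and it compresses dim and nearly saturated signals. The number of arrays (6) limits the precision. After removal of 66 control probe sets, 12422 were compared by lmFit and eBayes in limma 3.58.1 (R 4.3.3), whose fit had 4 residual and 5.814 prior degrees of freedom. P-values were adjusted by Benjamini-Hochberg over all of them, with a threshold of 0.05. The platform annotation gave 1 gene to 10833 probe sets, several to 396 and none to 1193. All 76 member genes matched the RefSeq table (GRCm38.p6) by identifier with the same symbol. The probe set with the highest mean stood for a gene. For 19 of the 76 members its identifier carried a letter suffix, as with Atp5e (i), Cox6a1 (f) and Cyc1 (r). Those 19 had a median difference of -0.081, and the other 57 had -0.063. Where the letter was r, Cyc1 (0.031), Cox6b1 (0.00060), Cox8b (0.037) and Atp5g1 (0.026) were above 0 and Ndufb2 (-0.17) was below. Probe sets below the lower quartile of all 6 arrays are called dim.

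Members and lists were chosen with earlier results of these data known. The rule for named genes took the 2 of smallest p per direction and complex, a panel of 30 genes (25 measured alone; Ndufa4, Uqcrfs1, Cox4i2, Atp5b and Atp5g3 were not analysed here), examples of genes whose probe sets disagreed in sign, and per pathway list the gene of smallest p in each direction with Ppargc1a. Genes without overlap and Ndufa7, Uqcr10, Uqcrb, Uqcrh, Cox6c, Cox6b1, Atp5j, Atp5l, Gabpb1, Hba-a1, Mobp and Mal were added after their values were seen, as were the level ranges and the split by role. Alternatives were a filter on the dimmest 40% of probe sets, quantile and cyclic loess normalization, array weights, moderation with trend and robust options, averaging the probe sets of a gene, and dropping each mouse in turn. On simulated data of 12422 probe sets with 200 changed, the fit called 9.5% of those changed 1.25-fold, 99.5% at 1.5-fold and 100% at 2-fold. Recovery of such changes in the measured arrays, where Hdh4/Q80 replicate 8 deviated most from gene means, was not tested.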

Additional observations from a re-analysis of the deposited data

How the results depend on the processing

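No member probe set passed the test under any alternative. The members' median difference stayed below 0 under every alternative, from -0.127 without Hdh4/Q80 replicate 9 to -0.013 without replicate 8, and at -0.038 with quantile normalization, -0.034 with cyclic loess and -0.032 with array weights, with 59 to 44 of 76 genes below 0 when single mice were left out. With replicate 8 left out, a choice made after seeing the data, 11 of 76 genes had all mutants lower in place of 9. All mutants were then higher in 2 of 76 in place of 0. Over array genes the shares without replicate 8 were 7.93% lower and 9.89% higher, against 5.22% and 5.87% with it. Leaving out single mice moved the median of the assembly factors between -0.1340 and 0.0007. Of the single-gene values under the alternatives, 719 kept their direction and 54 reversed, and the cause was not tested. With array weights, which rest the mutants mainly on replicate 7 (weight 6.19, against 0.228 and 0.405), the values that reversed were Ndufs1 0.0076, Ndufv1 0.0314, Cox5a -0.0203, Cox6b1 -0.0110, Cox6c -0.0009, Cox7a2l 0.0015, Cox8a -0.0224, Atp5d 0.0133, Atp5g1 -0.0110, Timm8a1 -0.0176 and Dhodh -0.0032. Quantile normalization gave Ndufv1 0.0449, Cox5a -0.0153, Cox7a2l 0.0332 and Cox8a -0.0332. Cyclic loess gave Ndufv1 0.0502, Cox5a -0.0236, Cox7a2l 0.0285, Cox8a -0.0224 and Atp5d 0.0009. Averaging the probe sets of a gene gave Cyc1 -0.0081 and Cox5a -0.0469. Leaving out single mice gave ranges across 0 for Ndufv1 (-0.0878 to 0.0774), Sdha (-0.2164 to 0.0707), Sdhc (-0.1266 to 0.0117), Sdhd (-0.1509 to 0.0200), Cyc1 (-0.0198 to 0.1082), Uqcrc1 (-0.2427 to 0.0065), Cox5a (-0.0275 to 0.0268), Cox6b1 (-0.0076 to 0.0071), Cox6c (-0.0164 to 0.1504), Cox7a1 (-0.0634 to 0.0217), Cox7a2 (-0.1437 to 0.0298), Cox7a2l (-0.0800 to 0.0503), Cox8a (-0.0760 to 0.1089), Cox8b (-0.0201 to 0.0876), Atp5d (-0.0809 to 0.0202), Atp5g1 (-0.0989 to 0.1343), Cox18 (-0.0117 to 0.0295), Mrps18a (-0.0210 to 0.4075), Timm8a1 (-0.0120 to 0.1046) and Dhodh (-0.1035 to 0.1342). No paired analysis was possible because the groups share no replicate number.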
